A study of Mus musculus with 39 samples.

Results

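The 313 regions described here carried a listed H3K9me3 peak in all 6 DP and Pdgfra+ libraries of naive extra-embryonic endoderm (nEnd) and in none of the 3 Oct4+ libraries. They were chosen by that pattern alone, out of 57781 regions obtained by merging the H3K9me3 peaks of 9 libraries, and make up 0.542% of them. The opposite pattern, a peak in all 3 Oct4+ libraries and in none of the 6 others, was met by 2561 regions (4.43%). These counts are not like for like, because the first pattern asks for a peak in 6 lists and the opposite in 3, and the lists differ in length. A peak in 9 of 9 libraries was found at 1673 regions. The presence of H3K9me3 in DP and Pdgfra+ and its absence from the Oct4+ lists chose these regions and is therefore a description, with no test. Each of them is called a member below.

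The cells were untreated nEnd of 1 mouse OCT4-mCherry reporter line, in which the culture is grown on mouse embryonic fibroblast feeders in a medium with Activin A, CHIR99021 and LIF. FACS for OCT4-mCherry and PDGFRA-APC gave 3 populations: Oct4+ with the reporter, Pdgfra+ with the endoderm surface receptor PDGFRA, and DP with both. CUT&Tag, which uses an antibody to direct a transposase to a histone mark, was performed for H3K9me3, H3K27ac, H3K4me1 and H3K27me3 in 3 replicates per population, giving 36 libraries. All populations share the same line, medium and feeders. The paper describes its replicates as biological, while the labels do not say whether they came from separate cultures. How much of the spread between replicates is technical was not tested.

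H3K9me3 marks constitutive heterochromatin. It is placed by the methyltransferases SETDB1, SUV39H1 and SUV39H2 and read by HP1 proteins. SETDB1 is brought to DNA by TRIM28 (KAP1), which itself is recruited by zinc finger proteins with a KRAB domain. In early embryonic cells this machinery is known for silencing endogenous retroviruses and for keeping the methylated allele of imprinted control regions. The mark is also known over the final exons of zinc finger genes, where repeated C2H2 finger sequences lie in tandem.

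The members with the most H3K9me3 signal give a view of the sequence involved. For each, 300 bases around the interval of highest signal are shown from the GRCm38 reference (the build named mm10 in the labels), for 6 of the 7 members of highest rank and the 3 of highest rank at a promoter, which are 8 regions because Zfp930 is in both. In the first pair, the Zfp37 and Zfp68 windows, the sequence is written on the strand of the gene, and capitals mark the bases that encode the linker between neighbouring C2H2 fingers.
Zfp37, chr4:62191936-62192235, minus strand: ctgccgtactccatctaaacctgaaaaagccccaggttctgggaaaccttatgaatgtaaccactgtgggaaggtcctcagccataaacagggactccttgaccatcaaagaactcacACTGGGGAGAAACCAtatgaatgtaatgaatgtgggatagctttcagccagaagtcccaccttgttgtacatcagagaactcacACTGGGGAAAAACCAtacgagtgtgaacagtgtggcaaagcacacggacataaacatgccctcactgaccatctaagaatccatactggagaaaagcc
Zfp68, chr5:138606624-138606923, minus strand: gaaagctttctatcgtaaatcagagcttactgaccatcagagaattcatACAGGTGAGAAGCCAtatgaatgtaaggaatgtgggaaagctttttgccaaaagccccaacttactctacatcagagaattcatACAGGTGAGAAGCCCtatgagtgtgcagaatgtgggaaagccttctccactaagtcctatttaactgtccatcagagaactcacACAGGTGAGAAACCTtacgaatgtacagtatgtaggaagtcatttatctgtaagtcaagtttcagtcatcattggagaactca
Both windows lay in the last exon, and held 2 and 3 linkers. In the other windows no linker was found. Their capitals mark CpG dinucleotides, the site of DNA methylation.
Zfp146, chr7:30152826-30153125, plus strand: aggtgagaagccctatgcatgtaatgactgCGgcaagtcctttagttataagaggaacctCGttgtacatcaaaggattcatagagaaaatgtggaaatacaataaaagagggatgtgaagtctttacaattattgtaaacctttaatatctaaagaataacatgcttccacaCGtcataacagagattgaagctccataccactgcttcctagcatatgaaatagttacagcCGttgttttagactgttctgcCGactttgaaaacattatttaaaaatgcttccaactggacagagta
Plec, chr15:76177323-76177622, plus strand: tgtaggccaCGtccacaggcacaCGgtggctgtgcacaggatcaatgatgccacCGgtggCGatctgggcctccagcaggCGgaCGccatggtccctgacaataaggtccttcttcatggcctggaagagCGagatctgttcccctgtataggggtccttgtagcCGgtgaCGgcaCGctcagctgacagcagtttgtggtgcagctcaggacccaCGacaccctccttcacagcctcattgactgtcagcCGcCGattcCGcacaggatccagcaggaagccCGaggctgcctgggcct
Polr1d, chr5:147109586-147109885, plus strand: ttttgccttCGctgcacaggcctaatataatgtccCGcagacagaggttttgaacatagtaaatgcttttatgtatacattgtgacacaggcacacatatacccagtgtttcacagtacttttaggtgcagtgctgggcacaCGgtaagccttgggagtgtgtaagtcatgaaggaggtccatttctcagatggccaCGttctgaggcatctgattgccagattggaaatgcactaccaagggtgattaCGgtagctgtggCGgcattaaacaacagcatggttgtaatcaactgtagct
Unc5d, chr8:28931713-28932012, plus strand: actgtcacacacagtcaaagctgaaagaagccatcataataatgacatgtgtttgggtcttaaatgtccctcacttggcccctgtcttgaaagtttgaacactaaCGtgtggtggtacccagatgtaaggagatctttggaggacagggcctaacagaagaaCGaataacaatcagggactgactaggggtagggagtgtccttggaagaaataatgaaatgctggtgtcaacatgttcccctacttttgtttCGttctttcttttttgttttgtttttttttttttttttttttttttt
Zfp930, chr8:69227185-69227484, plus strand: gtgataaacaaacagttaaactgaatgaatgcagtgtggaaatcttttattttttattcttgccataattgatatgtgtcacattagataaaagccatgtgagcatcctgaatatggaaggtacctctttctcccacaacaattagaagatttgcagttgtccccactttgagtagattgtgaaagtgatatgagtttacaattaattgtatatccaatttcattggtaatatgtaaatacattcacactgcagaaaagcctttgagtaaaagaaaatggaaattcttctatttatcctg
Zfp606, chr7:12492995-12493294, plus strand: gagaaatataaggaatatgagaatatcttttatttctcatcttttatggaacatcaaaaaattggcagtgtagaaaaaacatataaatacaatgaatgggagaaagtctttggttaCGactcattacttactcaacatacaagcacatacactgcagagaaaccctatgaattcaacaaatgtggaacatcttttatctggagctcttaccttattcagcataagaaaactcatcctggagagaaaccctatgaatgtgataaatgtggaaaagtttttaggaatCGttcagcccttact
The windows differed widely in composition. The Plec window, in the last exon of Plec, had 15 CpG and 61.3% G+C, whereas the Zfp930 window, in an intron, had no CpG and 32.0% G+C. The Zfp146 window lay outside protein-coding genes, in the processed pseudogene Gm10988.

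The H3K9me3 lists held 5322 to 29970 peaks, and the shortest was that of Pdgfra+ replicate 2. Read numbers are not stated in the sources used here, so depth is unknown and a region with no listed peak may still carry the mark below the threshold of the peak caller. H3K27ac peaks over promoters were used to check the populations against their labels. Of 25 pluripotency genes, 17 to 22 had such a peak in the Oct4+ libraries, 6 to 11 in DP and 5 to 7 in Pdgfra+. Of 25 endoderm genes, 1 to 16 had one in Oct4+, 9 to 20 in DP and 14 or 15 in Pdgfra+. Of 20 fibroblast genes, which would mark feeder cells, 0 had one in any Pdgfra+ library, 0 or 1 in DP and 0 to 5 in Oct4+, and Col1a1 had one in Oct4+ replicate 1 only. With H3K4me1 the pluripotency and endoderm counts overlapped between populations. Oct4+ replicates had a peak at 7, 17 and 9 pluripotency genes and at 6, 9 and 5 endoderm genes. For DP these counts were 3, 15 and 9, then 2, 13 and 10. For Pdgfra+ they were 0, 1 and 8, then 1, 0 and 10, from lists of 1723, 1074 and 10620 peaks. H3K27ac at 24 trophectoderm genes overlapped too, with counts of 4 to 12 (Oct4+), 7 to 9 (DP) and 8 or 9 (Pdgfra+).

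To see whether the pattern of the members is shared by a library that did not choose them, the choice was repeated with each library left out in turn. With a DP library left out, 74.1, 95.8 and 74.2% of the regions so chosen had a peak in DP replicates 1, 2 and 3, against 21.5, 38.6 and 20.1% of all regions of the other 8 libraries. With a Pdgfra+ library left out, the shares were 98.5, 51.5 and 91.3%, against 42.2, 8.41 and 20.5%. With an Oct4+ library left out, a peak was found in it at 36.3, 15.6 and 3.69% of the chosen regions, against 43.3, 35.7 and 22.3% of all regions. Every Oct4+ library thus lay below the share of all regions, which include regions listed in Oct4+ alone. The distance was smallest for Oct4+ replicate 1, at 36.3% (exact 95% binomial interval 32.0 to 40.7%) against 43.3%. The choice already asks for a peak in the other DP and Pdgfra+ libraries, so the closer comparison is with all regions that have one there, whatever Oct4+ held. Among those, the Oct4+ libraries had a peak at 84.3, 79.6 and 67.0%, the DP libraries at 90.6, 98.2 and 90.6% and the Pdgfra+ libraries at 99.3, 54.2 and 92.7%. Against that set the chosen regions had a peak less often in all 9 libraries, by far more in Oct4+ than in DP or Pdgfra+. The chosen regions also had to lack a peak in the other Oct4+ libraries. A lower share in the Oct4+ library left out was therefore partly built into both comparisons. The binomial intervals cover counting error only, since neighbouring regions are not independent.

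**Figure D1:**
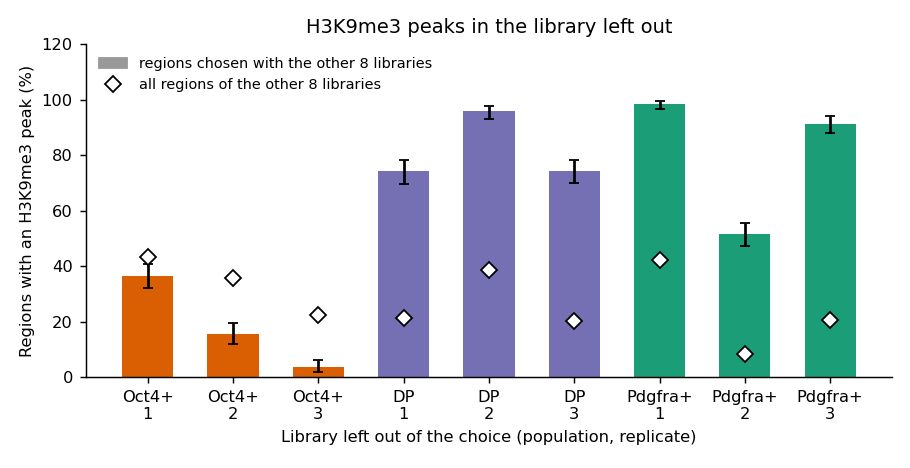
Share of regions with an H3K9me3 peak (%, y axis) in the library named on the x axis, for regions chosen with the other 8 libraries (bars, exact 95% binomial interval) and for all regions of those 8 libraries (diamonds). The 6 DP and Pdgfra+ bars stand between 51.5 and 98.5%, above their diamonds, and the 3 Oct4+ bars between 3.69 and 36.3%, below theirs.

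The members were broad. Their width was 2463 to 39124 bp with a median of 6428 bp, against 7107 bp for regions with a peak in 9 of 9 libraries and 3282 bp for all merged regions, and together they covered 2.53 Mb. In 282 of 313 (90.1%) the peaks of all 6 libraries shared at least 1 base, and this common core had a median of 1853 bp. The remaining 31 were joined from peaks that did not all overlap. The nearest listed Oct4+ peak was 20.6 kb away at the median (range 0.432 to 259 kb). For 44 members it was within 5 kb, so that these lay at the edge of H3K9me3 already listed in Oct4+, while for 25 it was over 100 kb away.

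Signal is compared as a percentile, the share of peaks in the library's own list with a lower total signal, because the coverage was not scaled to depth. The median percentile of the members was 69.1, 85.6 and 68.4 in DP replicates 1, 2 and 3 and 90.9, 64.7 and 85.1 in Pdgfra+. Regions with a peak in 9 of 9 libraries had medians of 88.4, 93.8 and 88.0 in DP and 91.3, 68.7 and 86.6 in Pdgfra+. The members had the lower median in each of the 6 libraries, and the gap was wider in all 3 DP libraries than in any Pdgfra+ library. Averaged over the 6 libraries, the percentile of a member ranged from 26.5 to 99.7 with a median of 72.0. It was over 90 for 43 members and under 50 for 34.

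**Figure D2:**
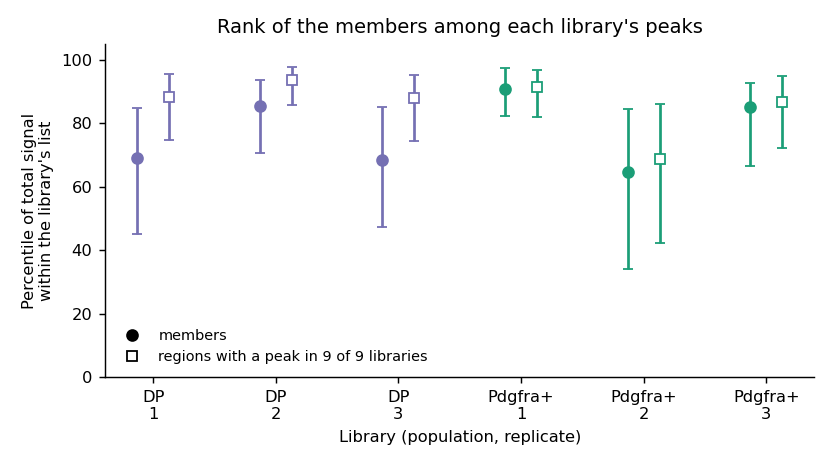
Percentile of total signal within each library's own peak list (y axis) for the 6 DP and Pdgfra+ libraries (x axis), as the median with the interquartile range. Filled circles are the 313 members, with medians of 64.7 to 90.9, and open squares the 1673 regions with a peak in 9 of 9 libraries, with medians of 68.7 to 93.8.

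The median percentile over the members was taken in each library. Its average over the DP libraries minus that over the Pdgfra+ libraries was -5.89 points. This is a description with no test, because the same 6 libraries chose the members and a percentile depends on the length of the list, which ran from 5322 to 29970 peaks. The value was -0.555 without Pdgfra+ replicate 1 and -13.7 without Pdgfra+ replicate 2, so that single libraries set its size. Every Pdgfra+ library ranked above every DP library at 24 members (7.67%) and the reverse held at 10 (3.19%). For regions of 9 of 9 libraries the shares were 1.61 and 14.2%, and these orders too rest on lists of unequal length. Among the 24 was Ifi202b on chromosome 1, an interferon-inducible gene, with percentiles of 63.3, 89.9 and 73.1 in DP and 99.2, 94.9 and 97.8 in Pdgfra+.

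At the threshold of the rule, the weakest member was chr17:18434154-18437240 in an intron of the vomeronasal receptor gene Vmn2r95, with a mean percentile of 26.5 and total signals of 6461, 7096 and 6972 in DP and 13670, 10589 and 7969 in Pdgfra+. The next were chr2:89857804-89866994 near Olfr48 and chr8:46373655-46376845 near Helt, both at 35.7. Just outside the rule, 246 regions had a peak in 6 of 6 and 1 of 3 libraries, led by chr4:3058484-3073697 (99.9), chr12:106409591-106427380 (99.1) and a region at Sympk and Rsph6a (98.0). Another 563 had a peak in 5 of 6 and 0 of 3, led by chr2:98661903-98665702 at Gm10801 (99.9), a region 40.7 kb from Zfp825 (95.9) and one in an intron of Clstn2 (95.4). At Gm10801 the maximum signal was 279, 299 and 274 in DP, the highest of each DP list. No regions were left out here for extreme signal. The first of the 246 held an Oct4+ replicate 3 peak with a total signal of 10306 beside 133799 to 272325 in the other 6 libraries.

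Zinc finger genes were frequent among the strongest members. Of 394 genes with a Zfp symbol, 39 (9.90%) had a member over the gene or within 20 kb of its start, at 31 members, against 292 of 21938 protein-coding genes (1.33%). Regions of 9 of 9 libraries, which are more numerous, met 59 of the 394, a larger share than the members did, against 4.80% of all protein-coding genes. The same list was found at 279 of 394 (70.8%) of genes when any merged H3K9me3 region was counted, against 53.3% of all protein-coding genes. Because symbols do not follow function exactly, genes were also classed by sequence after the first values had been seen, as those whose transcripts encode 3 or more C2H2 linkers in 1 reading frame. This gave 364 genes of 21938. A member overlapped 41 of them (11.3%) and 157 of 21574 other protein-coding genes (0.728%), whereas regions of 9 of 9 libraries overlapped 9.62 and 2.47% and Oct4+ only regions 1.37 and 2.96%.

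Counted by region, 40 of 313 members (12.8%, exact 95% binomial interval 9.29 to 17.0%) overlapped a zinc finger gene, against 37 of 1673 regions of 9 of 9 libraries (2.21%), 8 of 2561 Oct4+ only regions (0.312%), 0 of 287 regions shared by DP and Oct4+ only and 328 of all regions (0.568%). Since members were wider than most regions, the count was repeated in the 300 bases around the highest signal. Of these windows 32 (10.2%) lay in a zinc finger gene, against 1.20% for 9 of 9 libraries and 0.481% for all regions. The order of the sets stayed the same with a fixed width. An in-frame linker was encoded in 20 member windows (6.39%), in 0.359% of windows of 9 of 9 libraries, in 0.0781% of Oct4+ only windows and in 0.211% of all.

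**Figure D3:**
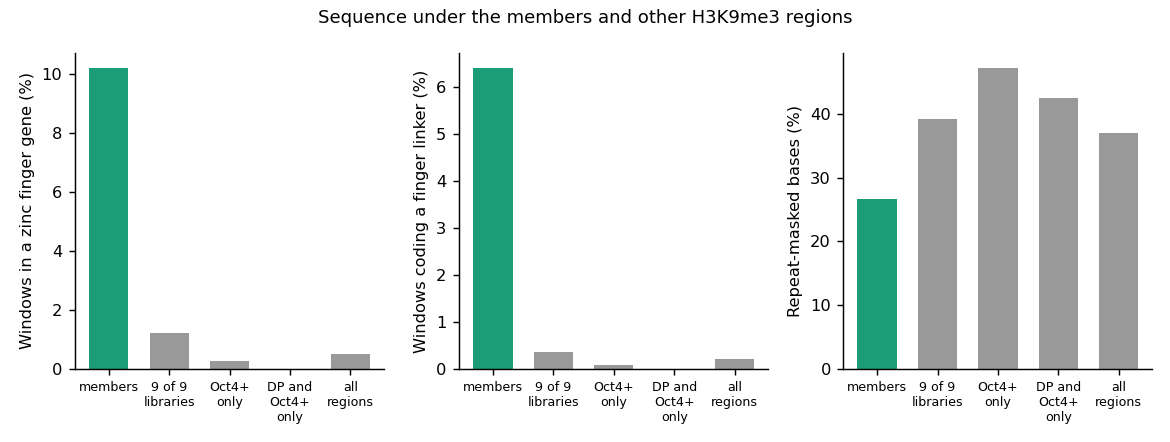
Share of 300-base windows around the highest signal that lie in a zinc finger gene (left) and that encode a C2H2 finger linker (middle), and share of bases that are repeat-masked over whole regions (right), all in %, for the members (green) and 4 other sets of H3K9me3 regions (grey). The members have 10.2, 6.39 and 26.7%, the highest, the highest and the lowest value of the 5 sets.

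Within the genes, the members lay mostly over the end. Of the 40 members over zinc finger genes, 32 (80.0%) covered part of the last exon, where the fingers are encoded, and 1 (2.50%) came within 1 kb of the annotated start of the gene. When the starts of all protein-coding transcripts are counted, 9 of the 40 overlapped a promoter. In regions of 9 of 9 libraries the shares over the last exon and the annotated start were 67.6 and 16.2%. The 40 members were also wider and stronger than the rest, with a median width of 9328 bp against 6149 bp and a median of the mean percentile of 88.5 against 70.0. By library their median percentile was 83.2, 93.5 and 87.0 in DP and 96.8, 83.4 and 94.7 in Pdgfra+, above the 67.9, 84.6 and 66.3 and the 89.7, 61.8 and 82.4 of the other 273 members in each of the 6 libraries. Of the 43 members with a mean percentile over 90, 19 overlapped a zinc finger gene.

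The same contrast was visible over the family as a whole, including genes with no member. Over the last exon, 33, 24 and 15 of the 364 genes had a peak in the Oct4+ libraries, 96, 132 and 101 in DP and 154, 82 and 135 in Pdgfra+. All 6 DP and Pdgfra+ libraries lay above all 3 Oct4+ libraries, including Pdgfra+ replicate 2 with the shortest list. In the 323 genes without a member the counts were 32, 23 and 15, then 66, 100 and 69, then 122, 50 and 102. With every list reduced to its 5322 peaks of highest total signal the counts over all 364 genes were 11, 11 and 8 in Oct4+, 62, 83 and 77 in DP and 107, 82 and 109 in Pdgfra+. Over whole gene bodies the separation was smaller but of the same order, with a peak at 22.3, 19.2 and 13.7% of zinc finger genes in Oct4+, 34.3, 45.3 and 34.9% in DP and 51.1, 29.7 and 44.5% in Pdgfra+. The bodies of other protein-coding genes overlapped between populations, at 18.3, 15.4 and 10.7% in Oct4+, 11.2, 18.5 and 11.0% in DP and 17.3, 5.28 and 11.7% in Pdgfra+. No test was made, because this family was singled out from the members.

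**Figure D4:**
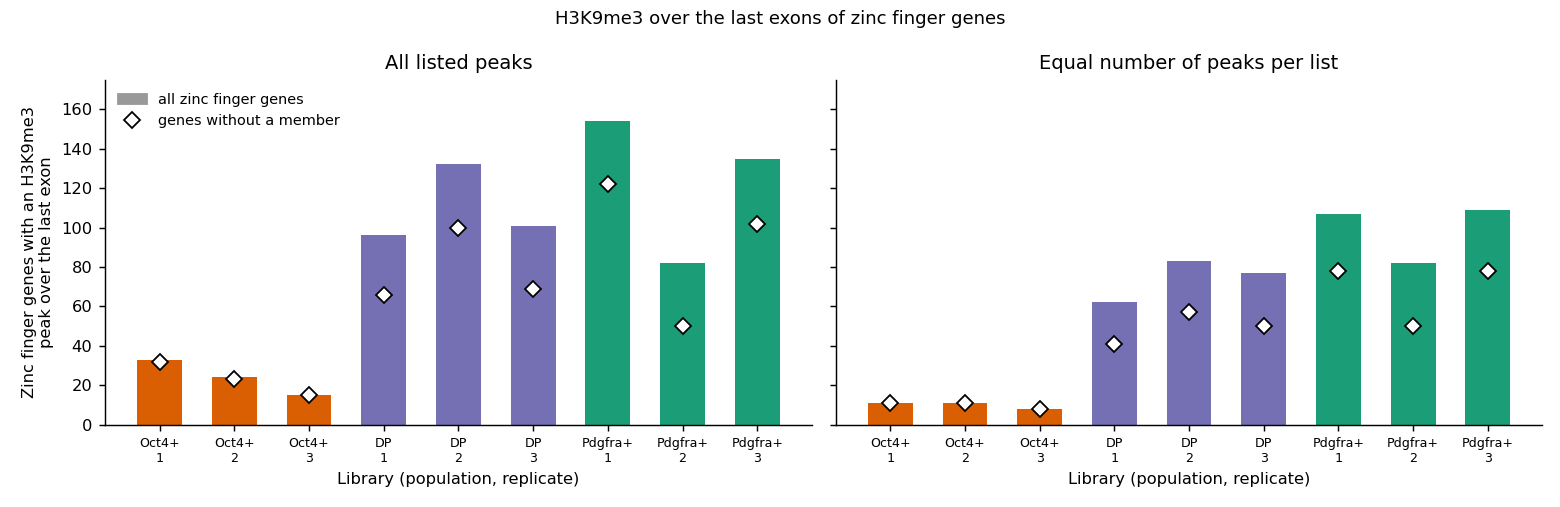
Number of 364 zinc finger genes with an H3K9me3 peak over the last exon (bars) and of the 323 without a member (diamonds), by library, with all listed peaks (left) and with 5322 peaks per list (right). Oct4+ bars reach 33 on the left and 11 on the right, and DP and Pdgfra+ bars start at 82 and 62.

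The strongest member, chr7:30139428-30164656, overlapped an exon of Zfp146. Its total signal was 71755, 92159 and 59192 in DP and 175158, 73505 and 115015 in Pdgfra+, at a mean percentile of 99.7, and its core of 11016 bp was the longest of all. The second, chr4:62184181-62198474, covered the last exon of Zfp37 with 50289, 48762 and 59296 in DP and 84482, 43917 and 57857 in Pdgfra+, and held the finger repeat printed above. It lay 0.875 kb from the nearest Oct4+ peak. Both were within the top percentiles in every library, with mean percentiles of 99.7 and 99.4 in DP and of 99.7 and 98.9 in Pdgfra+.

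Further members over zinc finger genes were Zfp35 and Zfp24 (98.9), Zfp930 at chr8:69219120-69236624 (98.2), Zfp606 at chr7:12488796-12503766 (98.0), Zfp90 at chr8:106422049-106430658 (97.4) and Zfp68 at chr5:138602124-138610030 (96.6). A region of 20859 bp at chr9:22237046-22257904 covered Zfp809 and Zfp599. Zfp809 is known for recruiting TRIM28 to murine leukaemia virus sequences in embryonic cells. There, total signals were 17640, 41689 and 27482 in DP and 107170, 21727 and 87497 in Pdgfra+. The Pdgfra+ replicates thus spanned a wider range than DP, with replicate 2 the lowest. Zfp369 (94.7), Zfp119a (93.8), Zfp354c (91.4) and Zfp763 (91.4) followed, and the weakest of the 40 overlapped Repin1, which encodes a protein with many C2H2 fingers (53.2).

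The remaining members of highest rank lay over genes of other kinds. Plec, which encodes the cytoskeletal linker plectin, held chr15:76169670-76184666 over its last exon, with total signals of 30479, 48472 and 42497 in DP and 137083, 66543 and 116879 in Pdgfra+. All 3 Pdgfra+ values exceeded all 3 DP values, on a scale not corrected for depth. Only 4.78% of its bases were repeat-masked. A member at chr5:147105685-147118325 overlapped an exon of Polr1d, a subunit shared by RNA polymerases I and III, at a mean percentile of 98.3. Another, chr8:28926107-28938326, lay in an intron of the netrin receptor gene Unc5d, 281 kb from its start, at 98.2, and the nearest Oct4+ peak was 195 kb away. Sorbs3, which encodes the adhesion adaptor vinexin, had a member at 97.5. The one intergenic region among the first 12, chr13:74527631-74531340, lay 33.6 kb from Zfp825, and 93.3% of its bases were repeat-masked. Its signal was even across libraries, with 37674, 33421 and 30025 in DP and 47722, 26289 and 31750 in Pdgfra+.

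Promoters, counted from 1 kb upstream to 100 bp downstream of any protein-coding transcript, were overlapped by 36 members (11.5%), exons by a further 77 (24.6%) and introns by 57 (18.2%), which left 143 (45.7%) outside genes. Regions of 9 of 9 libraries had 9.09, 12.7, 13.4 and 64.7%, Oct4+ only regions 4.45, 7.54, 15.7 and 72.4% and all regions 3.76, 7.49, 18.6 and 70.1%. Of these 4 sets, the members had the largest share over promoters and exons and the smallest outside genes. Of the 36 promoter members, 9 overlapped a zinc finger gene, among them Zfp930, Zfp606 and Zfp68, where the member lay 8.75 kb or more from the nearest gene start and the promoter is that of an alternative transcript. Others were AW146154 (95.6), D130040H23Rik (95.6), Itpr2, which encodes an inositol trisphosphate receptor (92.2), Zfp329 (91.2), Gm4924 (90.5), Olfr769 (87.5) and C130032M10Rik inside Trim71, a gene for an RNA-binding protein of pluripotent cells (86.7). They went on with Ifi202b (86.4), Klra17 (84.2), Hmces, a guardian of abasic DNA sites (83.2), the myosin chaperone gene Unc45b (80.7) and the receptor phosphatase gene Ptprs (80.1).

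Of 47 imprinted genes, 6 had a member over the gene or within 20 kb of its start (12.8%), against 1.33% of all protein-coding genes. Regions of 9 of 9 libraries met 18 (38.3%, against 4.80%) and Oct4+ only regions 2 (4.26%, against 5.30%). Any merged H3K9me3 region was found at 42 (89.4%), against 53.3% of all protein-coding genes. Of the 6, 3 belong to 1 cluster on chromosome 17, in which the non-coding RNA Airn silences its neighbours in cis. The member counted for Airn, chr17:12812335-12822467, lay over that gene or within 20 kb of its start, and 42.7 kb from the start of Igf2r. It had total signals of 19261, 36346 and 21271 in DP and 62298, 26318 and 25942 in Pdgfra+, at 95.6. The member in Igf2r, the receptor that clears IGF2, chr17:12677623-12682692, had 8874, 19269 and 11342 in DP and 22007, 16118 and 19028 in Pdgfra+, at 78.5. The member near the cation transporter gene Slc22a3 was weak and uneven (44.8), at percentiles of 12.1, 91.1 and 65.1 in DP and 64.7, 2.50 and 33.4 in Pdgfra+. Members also lay at the signalling adaptor gene Gab1 (88.8), in an intron of Kcnq1 (85.3) and at the G protein gene Gnas (56.5). The Kcnq1 member lay over the non-coding RNA Kcnq1ot1 or within 20 kb of its start.

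Most other gene lists held few genes with a member. Clustered protocadherins, cell surface proteins of neurons, counted 20 of 57 genes, but these rested on 2 regions of chromosome 18 with mean percentiles of 66.5 and 46.7 that overlap many genes at once. Of 1135 olfactory receptor genes 11 had a member (0.969%, at 4 members), and of 329 vomeronasal receptor genes 2 (0.608%), both below the 1.33% of all protein-coding genes. Solute carriers were close to it with 5 of 371 (1.35%). Germline genes had 2 of 30 (6.67%), the piRNA pathway helicase gene Tdrd9 (74.2) and D1Pas1 (72.6). Of 28 genes of the 2-cell stage list, 1 had a member (3.57%), Zfp809. The endoderm list had 1 of 25, a member at a mean percentile of 53.7 near Ttr, which encodes the thyroxine carrier transthyretin. None of the 25 pluripotency, 24 trophectoderm, 20 fibroblast, 39 Hox, 67 histone or 98 ribosomal protein genes had a member.

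Members were not spread evenly along the genome. Chromosome 12 held 29 (9.27%) but 4.30% of all merged regions, whereas chromosome X held 0 of 1199 merged regions and 7 of the 1673 regions of 9 of 9 libraries. A member lay within 200 kb of another in 79 cases, and 10 runs of 3 or more members held 39 of them. The same count was not made for other sets of regions, so the runs are a description. Not every member of a run had a base under a peak in all 6 DP and Pdgfra+ libraries. In the longer runs such a core was lacking at chr15:87563082-87577612, chr15:87780211-87799778 and chr12:107209159-107218868. The longest run in count, with 8 members, spanned chr15:87331064-87930115 around Fam19a5, a gene for a secreted neural protein, where mean percentiles were 50.9 to 89.5. Of 41 merged regions in that span, 9 had a peak in an Oct4+ library. A run of 7 covered chr12:106353725-106880697, a span of 527.0 kb with no annotated protein-coding gene, at 38.8 to 92.8, and 3 more members followed at chr12:107120400-107218868. In the first of these the member chr12:106726547-106757303 was 30757 bp wide, with total signals of 12243, 27519 and 15187 in DP and 187067, 33356 and 30933 in Pdgfra+. Pdgfra+ replicate 1 was far above the other libraries there, on a scale not corrected for depth.

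The shorter runs had 3 members each. They lay at chr4:152635147-152872887, nearest to Kcnab2, at chr4:153166559-153340270, nearest to Ajap1, at chr6:143407265-143495772, all with no protein-coding gene in the span, and at chr17:12520810-12822467 with the Airn cluster. On chromosome 4 the core was lacking at chr4:152635147-152653028, chr4:152848815-152872887, chr4:153166559-153174385 and chr4:153230374-153238953. The other 3 runs contained zinc finger genes. At chr17:55858718-56133458 members covered Zfp119a (93.8), Zfp119b (77.3) and the semaphorin gene Sema6b (49.1). At chr2:150237737-150475141 they covered Zfp937 (63.5), Gm14124 (82.1) and Zfp345 (88.9), and 5 of the 7 genes in the span were zinc finger genes. At chr5:109476892-109742406, 2 of the 3 genes were.

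The members were poor in repeats. Repeat-masked bases made up 26.7% of them, against 39.2% in regions of 9 of 9 libraries, 47.2% in Oct4+ only regions and 37.1% in all regions. Under 20% of the bases were masked in 99 members (31.6%) and over 60% in 7 (2.24%), against 11.4 and 13.7% for 9 of 9 libraries. Their G+C content had a median of 45.1% and they held 9.15 CpG per kb at the median, against 44.2% and 10.2 per kb in regions of 9 of 9 libraries. Members over zinc finger genes had 40.3% G+C and 6.94 CpG per kb, below the 45.5% and 9.46 per kb of the others.

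The 300-base windows were searched on both strands for 5 motifs, and a match is a description of the sequence only. The core site of ZFP57, TGCCGC, a zinc finger protein known for binding imprinted control regions, was found in 6.07% of members, 5.74% of regions of 9 of 9 libraries and 3.32% of all regions. The octamer ATGCAAAT, bound by OCT4, was found in 2 members (0.639%), against 2.99 and 2.55%. For the GATA motif AGATAA the shares were 19.2, 15.5 and 16.2%, for the STAT motif TTCCNGGAA 1.28, 0.598 and 0.767% and for the AP-1 motif TGACTCA 6.07, 7.71 and 5.91%. None of the 5 contains another.

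The other 3 marks had no part in the choice. A peak of H3K27ac, H3K4me1 or H3K27me3 in any of 27 libraries was found at 157 of 313 members (50.2%), against 26.4% of all merged regions and 44.0% of regions of 9 of 9 libraries. All merged regions were narrower, with a median of 3282 bp against 6428 bp. The remaining 156 members had none. H3K27ac, a mark of active promoters and enhancers, had a peak at 21.4, 33.9 and 5.11% of members in the Oct4+ libraries, 5.11, 1.28 and 4.15% in DP and 1.60, 3.19 and 1.28% in Pdgfra+. The groups touched, since Oct4+ replicate 3 and DP replicate 1 were equal. To allow for lists of 3079 to 65131 peaks, the share of all merged H3K9me3 regions was subtracted. The excess at the members was 9.84 ± 6.87 percentage points in Oct4+ (SD, n = 3), 2.07 ± 1.15 in DP (SD, n = 3) and 1.26 ± 1.06 in Pdgfra+ (SD, n = 3). The difference of 8.17 points between Oct4+ and the other 6 libraries did not pass the adjusted threshold of 0.05 (exact permutation of libraries, two-sided, with p = 0.0238 and, over 3 tests, adjusted p = 0.0714).

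The length of the H3K27ac lists moved with this excess. As a ratio to all merged regions, members were 1.93 to 2.24 times as often marked in Oct4+, 2.30 to 3.14 times in DP and 1.70 to 4.51 times in Pdgfra+. The sign of the difference turned on that scale (log2 ratio difference of -0.383). With an equal number of peaks per list it was 0.904 points, with regions of 9 of 9 libraries as the background 0.0347 points, and without Oct4+ replicate 2 it was 4.85 points. The size of the difference therefore moved with list length and background. Regions of 9 of 9 libraries, with a peak at 23.2, 32.2 and 8.19% in Oct4+, were marked about as often as members. Counted by region, 39 members (12.5%) had an H3K27ac peak in 2 or 3 Oct4+ libraries and in 0 of 6 others, against 5.84% of all merged regions and 12.9% of regions of 9 of 9 libraries. Among the members over zinc finger genes, 12.5, 27.5 and 2.50% had a peak in the Oct4+ libraries, and among the others 22.7, 34.8 and 5.49%.

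**Figure D5:**
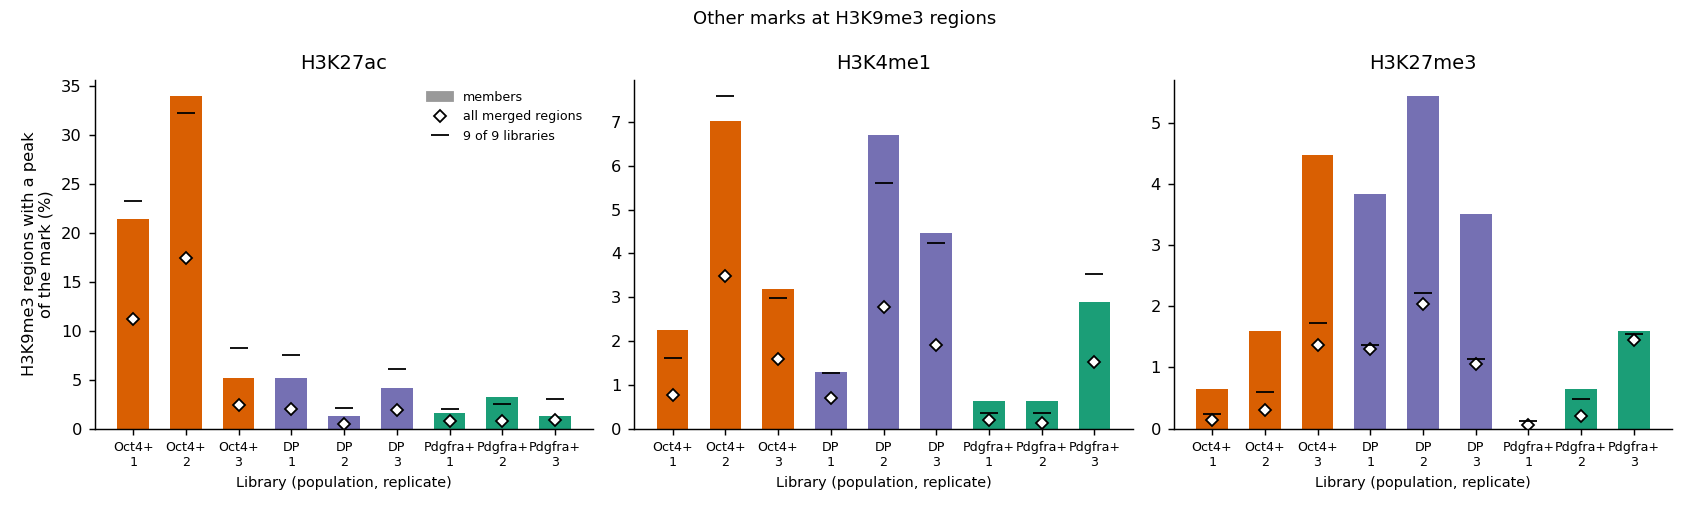
Share of H3K9me3 regions with a listed peak of H3K27ac (left), H3K4me1 (middle) and H3K27me3 (right), in %, by library, for the members (bars), all merged regions (diamonds) and regions with a peak in 9 of 9 libraries (dashes); the y axes differ. H3K27ac bars reach 33.9% in Oct4+ and stay at or below 5.11% in DP and Pdgfra+.

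Single members with H3K27ac in 3 of 3 Oct4+ and 0 of 6 other libraries numbered 10 (3.19%), against 1.25% of all merged regions and 3.65% of regions of 9 of 9 libraries. The first by rank were the Ifi202b promoter, the Kcnq1 intron near Kcnq1ot1, an intergenic region at chr17:13654684-13664322 that lay 96.2 kb from Afdn, the promoter of the importin gene Ipo11, an intron of the adenylate kinase gene Ak7 and a region 396 kb from Zfp386. The one near Afdn also had H3K4me1 in 3 of 3 Oct4+ libraries and in none of the others. Its H3K9me3 signal was 21455, 44915 and 36218 in DP and 31513, 7831 and 20279 in Pdgfra+, with Pdgfra+ replicate 2 far below the rest. H3K27ac in 2 or more of the 6 DP and Pdgfra+ libraries and 0 of 3 Oct4+ was found at 3 members (0.958%), against 0.358% of all merged regions, in libraries whose H3K27ac lists were mostly shorter than those of Oct4+. They lay in introns of Maml3 and Clmn and 143 kb from Gadl1. The intron of Maml3, a coactivator of Notch, had H3K27ac in 2 of 3 DP, 2 of 3 Pdgfra+ and 0 of 3 Oct4+ libraries and H3K4me1 in 2, 3 and 0.

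H3K4me1, a mark of enhancers, was listed at 2.24, 7.03 and 3.19% of members in Oct4+, 1.28, 6.71 and 4.47% in DP and 0.639, 0.639 and 2.88% in Pdgfra+. The populations overlapped, and neither the excess of Oct4+ over the other 6 (0.647 points, exact p = 0.512, adjusted p = 0.768) nor that of DP over Pdgfra+ (1.60 points, exact p = 0.200, adjusted p = 0.400) passed the threshold. H3K4me1 in 3 of 3 Oct4+ libraries was found at Sorbs3, Ajm1, Lama5, which encodes a laminin of basement membranes, and the Trim71 region. Among these, only Sorbs3 lacked it in all DP and Pdgfra+ libraries. It was also listed in 1 Pdgfra+ library at Ajm1, in 1 DP and 1 Pdgfra+ library at Lama5 and in 2 DP libraries at Trim71. In the other direction, a region 68.5 kb from the sialyltransferase gene St6galnac5 had H3K4me1 in 3 of 3 DP and 3 of 3 Pdgfra+ libraries and in no Oct4+ library. The share of all merged regions was not counted for either pattern.

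H3K27me3, the polycomb mark, was listed at 0.639, 1.60 and 4.47% of members in Oct4+, 3.83, 5.43 and 3.51% in DP and 0, 0.639 and 1.60% in Pdgfra+. All 3 DP libraries lay above all 3 Pdgfra+ libraries. The excess in DP was 2.63 points above that in Pdgfra+, at the smallest p that 3 against 3 libraries allow (exact p = 0.10, and 0.400 once adjusted). As a ratio to all merged regions, again with 0.5 added to each count, the populations overlapped, with DP at 2.74 to 3.49 and Pdgfra+ at 1.21 to 3.76. The log2 ratio differed by 0.367 (exact p = 0.800). The Pdgfra+ ratios rest on few members. Replicate 1 had a peak at 0 members, so its ratio of 3.02 comes from the added count alone, and replicate 2, at 3.76, had a peak at 2. For Oct4+ against the others the excess differed by 0.143 points (p = 0.917, adjusted p = 0.917, exact). In 8 members (2.56%) a peak was found in 2 or 3 DP and 0 of 3 Pdgfra+ libraries, against 0.566% of all merged regions and 0.777% of regions of 9 of 9 libraries. Those with all 3 DP libraries included Sorbs3, Unc45b, Ajm1, an intron of Igsf21 and a region 15.4 kb from Eif2ak3, a kinase of the unfolded protein response. Fam83h, whose product scaffolds casein kinase 1, stood apart with H3K27ac in 9 of 9 libraries and H3K27me3 in 3 of 3 DP libraries beside an H3K9me3 percentile of 95.7.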

How the data were processed

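The authors sequenced CUT&Tag libraries paired-end and computed BEDtools coverage. They called peaks with SEACR in stringent mode against IgG, per library and without pooling replicates. The submitters' processing notes name mm10, Bowtie2, SAMtools 1.12 and bedtools 2.26.0. The deposited signal of each peak is whole-number fragment coverage, summed over its bases or at its maximum, not scaled to depth. Depth and the SEACR normalization setting are not stated in the sources used here. The 3 IgG samples were not analysed here.

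Peaks of the 9 H3K9me3 libraries were merged, and a region had a peak in a library when at least 1 base overlapped. The members and gene lists were chosen with earlier results of these data known, and the zinc finger classification was made after values were seen. Regions were annotated with GENCODE vM21 and soft-masked GRCm38. Named members were the 12 of highest mean percentile, the 6 of longest core, the first 15 at promoters, up to 10 per gene list, 6 per other mark and direction, runs with gaps up to 200 kb, and the 3 weakest with 3 of each kind just outside. Zfp369, Zfp354c, Zfp763 and Repin1, and the comparisons of members over zinc finger genes with the others, were chosen after their values were seen. Shares of members with a peak of another mark, minus the share of all merged regions, were compared by exact permutation over 84 or 20 assignments of libraries, with Benjamini-Hochberg adjustment over 3 and 4 tests, the fourth being the H3K9me3 rank, for which no p is given because its libraries chose the members. The shares of all regions for 3 further calls of other marks were added after seeing the data. Alternatives changed overlap, merging, peak thresholds, list lengths, windows, background, scale and libraries. Merging and overlap were tested on simulated data. Python 3.11.15, NumPy 2.4.6, pandas 2.3.3, SciPy 1.17.1, pysam 0.24.0, samtools 1.23.1 and Matplotlib 3.10.9 were used.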

Additional observations from a re-analysis of the deposited data

How the results depend on the processing

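The number of members was 313, 876 when a peak in 5 of 6 libraries was enough and 559 when 1 Oct4+ peak was allowed. With 1 library left out it ran from 325 to 608, with 491 without Oct4+ replicate 1 and 608 without Pdgfra+ replicate 2. The share of members over zinc finger genes (12.8%) was 6.96 and 8.23% under the same wider rules and 8.22 to 12.8% with 1 library left out, lowest without Pdgfra+ replicate 2, in alternatives chosen after seeing the data. In the 2 kb around the middle, promoters held 5.75% and introns 23.0% of members.

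The H3K27ac difference between Oct4+ and the other libraries passed the threshold in the 2 kb around the middle (4.45 points), with the upper 50% of peaks (4.74) and with members covered to at least 25% (10.1), and turned to -0.383 as a log2 ratio. It shrank to 0.904 with an equal number of peaks per list (adjusted p = 0.107, exact), to 0.0347 against regions of 9 of 9 libraries and to 4.85 without Oct4+ replicate 2. H3K4me1 in Oct4+ against the others turned to -1.05 with 5 kb on each side, -0.120 against regions of 9 of 9 libraries, -0.275 as a log2 ratio and -0.0215 without Oct4+ replicate 2, with a range of -0.0215 to 1.12 over libraries left out. H3K27me3 in Oct4+ against the others turned to -0.266 with nothing subtracted and to -0.593, -0.164, -0.0685 and -0.125 without Oct4+ replicate 3 and Pdgfra+ replicates 1, 2 and 3, with a range of -0.593 to 0.708. Between DP and Pdgfra+, H3K27ac turned to -1.24 against regions of 9 of 9 libraries, and H3K4me1 to -0.638 as a log2 ratio and -0.313 with equal numbers of peaks. The cause was not tested.

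Same-numbered libraries deviated together only weakly, with correlations of -0.199 to 0.190 across the marks. Differently numbered libraries were not compared, so whether replicate numbers pair the libraries was not settled. With the replicate block the H3K27ac difference of 8.17 points had p = 0.0370 (the smallest the block allows, adjusted p = 0.111, exact). The block changed no call.

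Depth is unknown, so absence of a listed peak limits every count given here.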
